A study of Zea mays with 10 samples.

Results

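The 5 genes examined, which encode membrane channels, were followed through a field experiment on maize (Zea mays) leaves: 4 plasma membrane intrinsic proteins, PIP2-6 (LOC541891), PIP2-4 (LOC541890), PIP1-5 (LOC542014) and PIP1-3 (LOC541886), and the silicon channel Lsi6 (LOC542497). They were chosen by gene symbol, after the weedy against control ratios of these data were known, and 11 of the 19200 array elements carried one of these symbols and no other. One further element carried PIP1-3 together with PIP1-2 and was set aside from the gene values. PIP1-3 had 6 elements, PIP2-4 had 2, and PIP2-6, PIP1-5 and Lsi6 had 1 each. Of the 11 elements, 10 had values on enough arrays to be fitted, and the remaining one, element 1923 for PIP2-4, had no value on any array.

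The study set 4 weedy plots, sown with the weed velvetleaf, against 4 control plots where hand cultivation was repeated to keep most weeds out. Leaf from 4 plants was pooled in each plot, so a pool stands for a plot. All plants grew in the field without added water or fertilizer, and leaf was frozen at harvest. The sources used here name neither the maize line nor the age of the plants, nor the leaf position. In such bulk leaf pools, fewer cells of a type and less RNA per cell cannot be told apart. Each of 10 two-colour arrays set 1 weedy pool against 1 control pool. The weedy pool was labelled Cy5 on 5 arrays and Cy3 on the other 5. An array is named below by its 2 plots, so W2/C1 held weedy plot 2 and control plot 1. Each plot gave 1 RNA pool used on 2 to 4 arrays, so the arrays are not independent samples of the treatments.

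Aquaporins are membrane channels through which water, and in some subfamilies small uncharged solutes, cross a lipid bilayer down a gradient. The plasma membrane proteins fall into the subgroups PIP1 and PIP2. In maize, PIP2 proteins raise water permeability on their own when made in frog oocytes, whereas PIP1 proteins largely need a PIP2 partner to reach the plasma membrane. Lsi6 belongs to another branch, the nodulin-26-like proteins; in rice it carries silicic acid out of the xylem stream in leaves and nodes.

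The deposited value was a log ratio of the channels, treated as log2 and read as Cy5 over Cy3, and each array was centred on its median. Signs were then turned so that a positive value means more signal from the weedy pool. Neither the base nor the numerator is stated with the data. If the values run Cy3 over Cy5, every sign below is the opposite, and if the submitters already turned each array to weedy over control, the treatment ratio and the dye term exchange places. A ratio gives no level, so members were not ranked by abundance and the leaf identity of the pools could not be checked against marker genes. Arrays held 9965 to 17383 values. W3/C4 lacked 9235 and W4/C3 lacked 5453 of the 19200 elements, against 1817 to 2967 on the other 8 arrays, and these 2 arrays were the ones on which member elements most often had no value.

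All 5 genes had a positive fitted ratio, with Lsi6 the largest at 0.61 (SE 0.13), PIP2-4 at 0.42 (SE 0.19), PIP2-6 at 0.31 (SE 0.07), PIP1-5 at 0.15 (SE 0.08) and PIP1-3 at 0.13 (SE 0.07). Since these ratios were known when the genes were chosen, they are a description and no test is given for them. Over all 540 named genes, 57.2% had a positive ratio, and the median ratio was 0.02. By size of ratio, Lsi6 ranked 2 and PIP2-4 ranked 7 of 540, whereas PIP2-6 ranked 30, PIP1-5 ranked 133 and PIP1-3 ranked 164. These ranks hold for the reading as Cy5 over Cy3 with no correction for position. On the same reading, with medians of blocks of elements removed from each array, PIP2-6 fell to rank 171. Lsi6 then ranked 3, PIP2-4 ranked 7, PIP1-5 ranked 133 and PIP1-3 ranked 122. Read as already turned, the sizes ranked 33 for Lsi6, 150 for PIP2-4, 134 for PIP2-6, 446 for PIP1-5 and 145 for PIP1-3. Across the series, 0.0123% of elements (2 of 16201) and 0% of genes (0 of 540) passed an adjusted p of 0.05 in limma, with 12.1% of elements and 11.9% of genes under an unadjusted p of 0.05.

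Among the PIP2 channels, PIP2-6 had turned log2 ratios of 0.83 (W2/C1), 0.46 (W3/C2), 0.19 (W4/C3), 0.35 (W1/C4) and 0.37 (W4/C4) with the weedy pool in Cy5. With the control pool in Cy5 its ratios were 0.43 (W1/C2), 0.05 (W1/C3), 0.08 (W2/C4), 0.06 (W3/C1) and 0.21 (W3/C4). The gene was thus positive on 10 of 10 arrays, which 0.556% of genes were on every array with a value (3 of 540). Read as already turned it would be positive on 5 of 10 arrays, and with block medians removed it was positive on 8 of 10. On 3 arrays with the control pool in Cy5 it stood below 0.1. The mean was 0.44 ± 0.24 (SD, n = 5) with the weedy pool in Cy5 and 0.17 ± 0.16 (SD, n = 5) with the control pool in Cy5, and the values of the orientations overlapped. In the table, the 18 tested elements nearest to the PIP2-6 element, 19073, had a median fitted ratio of 0.18, and when medians of blocks of 400 elements were removed from each array the PIP2-6 ratio was 0.12. Elements near it thus had positive ratios too, and their part in its ratio was not tested.

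PIP2-4 was read from 1 element, 7578, on 8 arrays. Its turned log2 ratios with the weedy pool in Cy5 were -0.29 (W2/C1), 1.35 (W3/C2), -0.46 (W1/C4) and 0.54 (W4/C4). With the control pool in Cy5 they were 0.71 (W1/C2), 0.96 (W1/C3), 0.03 (W2/C4) and 0.46 (W3/C1). The spread over arrays, an SD of 0.62, exceeded the mean of 0.41, and the values with the weedy pool in Cy5 spanned those with the control pool in Cy5. The arrays of weedy plot 2 averaged -0.13 (n = 2), and those of weedy plot 3 averaged 0.91 (n = 2). Leaving out W3/C2 lowered the fitted ratio to 0.25, leaving out control plot 2 lowered it to 0.21, and leaving out control plot 4 gave 0.62. The 12 tested elements nearest to it in the table had a median ratio of 0.06.

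**Figure D1:**
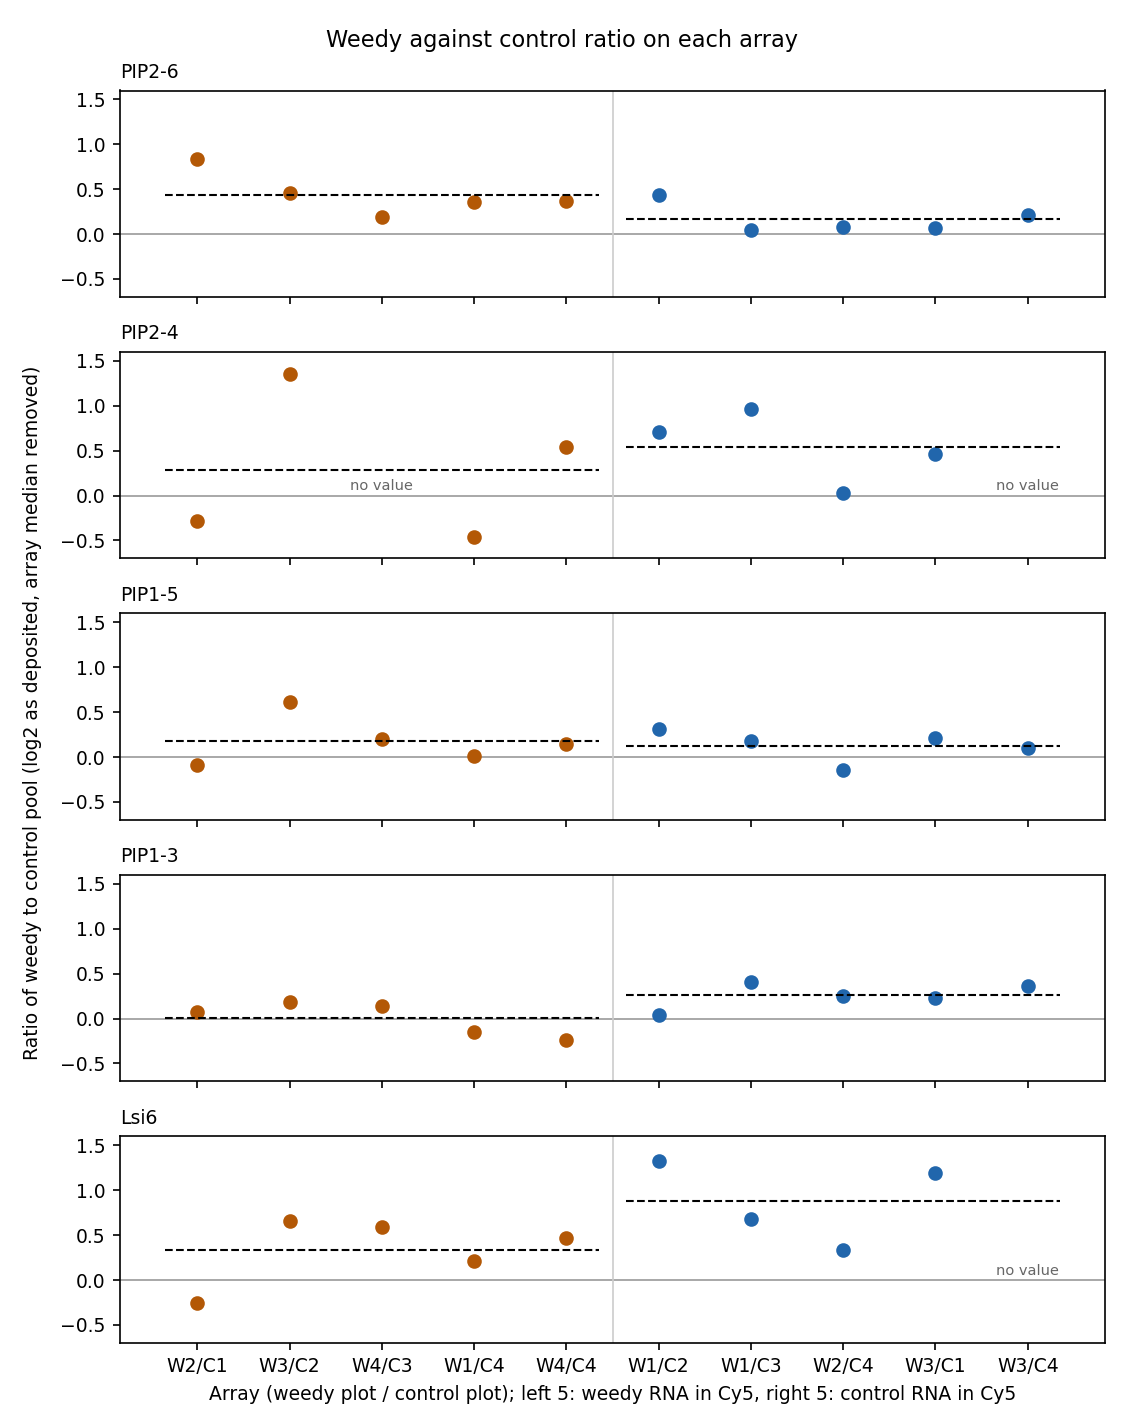
Turned log2 ratio of weedy to control pool on each array, 1 panel per gene, with arrays named by weedy and control plot on the x axis; orange points have the weedy pool in Cy5, blue points the control pool in Cy5, and dashed lines are the means of each orientation. PIP2-6 lies above 0 on all 10 arrays, while PIP2-4 runs from -0.46 to 1.35 and Lsi6 from -0.25 to 1.32.

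Of the PIP1 channels, PIP1-5 was read from element 4263. Its turned log2 ratios with the weedy pool in Cy5 were -0.09 (W2/C1), 0.62 (W3/C2), 0.21 (W4/C3), 0.01 (W1/C4) and 0.15 (W4/C4). With the control pool in Cy5 they were 0.31 (W1/C2), 0.17 (W1/C3), -0.15 (W2/C4), 0.21 (W3/C1) and 0.10 (W3/C4). It was positive on 8 of 10 arrays, as were 10.2% of genes on 8 or more, and both negative arrays held weedy plot 2. The orientation means were close, at 0.18 ± 0.27 with the weedy pool in Cy5 and 0.13 ± 0.17 with the control pool in Cy5 (SD, n = 5 each). Without control plot 2 the fitted ratio fell to 0.08, and without W3/C2, the highest array, it was 0.10. Its 16 tested neighbours in the table had a median ratio of -0.01.

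PIP1-3, as the mean of its elements, had ratios of 0.08 (W2/C1), 0.18 (W3/C2), 0.14 (W4/C3), -0.15 (W1/C4) and -0.23 (W4/C4) with the weedy pool in Cy5. With the control pool in Cy5 they were 0.04 (W1/C2), 0.41 (W1/C3), 0.25 (W2/C4), 0.23 (W3/C1) and 0.36 (W3/C4). Of the last 5, 4 lay above every array with the weedy pool in Cy5, and the means were 0.0021 ± 0.19 with the weedy pool in Cy5 and 0.26 ± 0.14 with the control pool in Cy5 (SD, n = 5 each). On W3/C4 only 3 of the 6 elements had a value. The elements disagreed widely. Fitted ratios were 0.48 (SE 0.16) for element 10426 and 0.37 (SE 0.13) for element 5135. They were 0.16 (SE 0.12) for element 14461, 0.16 (SE 0.15) for element 15497 and -0.10 (SE 0.10) for element 11811. Element 17750 stood at -0.40 (SE 0.19) and was negative on 7 of 8 arrays.

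Element 10426 had ratios of -0.54 (W2/C1), 0.35 (W3/C2), 0.11 (W4/C3), 0.45 (W1/C4) and 0.09 (W4/C4) with the weedy pool in Cy5, and 0.73 (W1/C2), 1.94 (W1/C3), 0.48 (W2/C4), 0.09 (W3/C1) and 1.16 (W3/C4) with the control pool in Cy5. Element 5135 had ratios of -0.33 (W2/C1), 0.46 (W3/C2), -0.53 (W1/C4) and -0.06 (W4/C4) with the weedy pool in Cy5, and 0.79 (W1/C2), 1.02 (W1/C3), 1.23 (W2/C4) and 0.36 (W3/C1) with the control pool in Cy5. Both elements were thus high on W1/C2 and W1/C3 and low on W2/C1, but on W1/C4 they stood at 0.45 for 10426 and -0.53 for 5135. Element 17750 had ratios of 0.80 (W2/C1), -0.29 (W3/C2), -0.38 (W1/C4) and -1.21 (W4/C4) with the weedy pool in Cy5, and -1.07 (W1/C2), -0.81 (W1/C3), -0.01 (W2/C4) and -0.27 (W3/C1) with the control pool in Cy5. Its single positive array, W2/C1, was the lowest array of element 10426.

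The SD over the 6 PIP1-3 elements was 0.32, against a median of 0.15 over the 80 named genes with 5 or more fitted elements, and 0 of those 80 had a larger SD. Pearson correlations over the arrays were taken on the centred values before their signs were turned, as Cy5 over Cy3. They therefore take in the dye term and are not correlations of the turned ratios printed above. On that scale the 15 pairs of PIP1-3 elements had a median of -0.14. The range was from -0.69 (10426 and 17750, n = 8) to 0.64 (5135 and 10426, n = 8). Element 8078, annotated with both PIP1-3 and PIP1-2, followed the pair 5135 and 10426. On the same unturned values its correlation was 0.82 with 5135 (n = 8), 0.75 with 10426 (n = 10) and -0.05 with 11811 (n = 10). These correlations describe single spots that share arrays, dyes and pools. Elements 5135, 10426 and 8078 averaged -0.11, 0.09 and -0.12 with the weedy pool in Cy5, and 0.85, 0.88 and 0.71 with the control pool in Cy5. PIP genes are close relatives in sequence, and whether an element reads its named gene alone was not tested. With the median of the elements in place of the mean the PIP1-3 ratio was 0.07, and with elements 5135 and 17750, which lack values on 2 arrays each, left out it was 0.18.

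**Figure D2:**
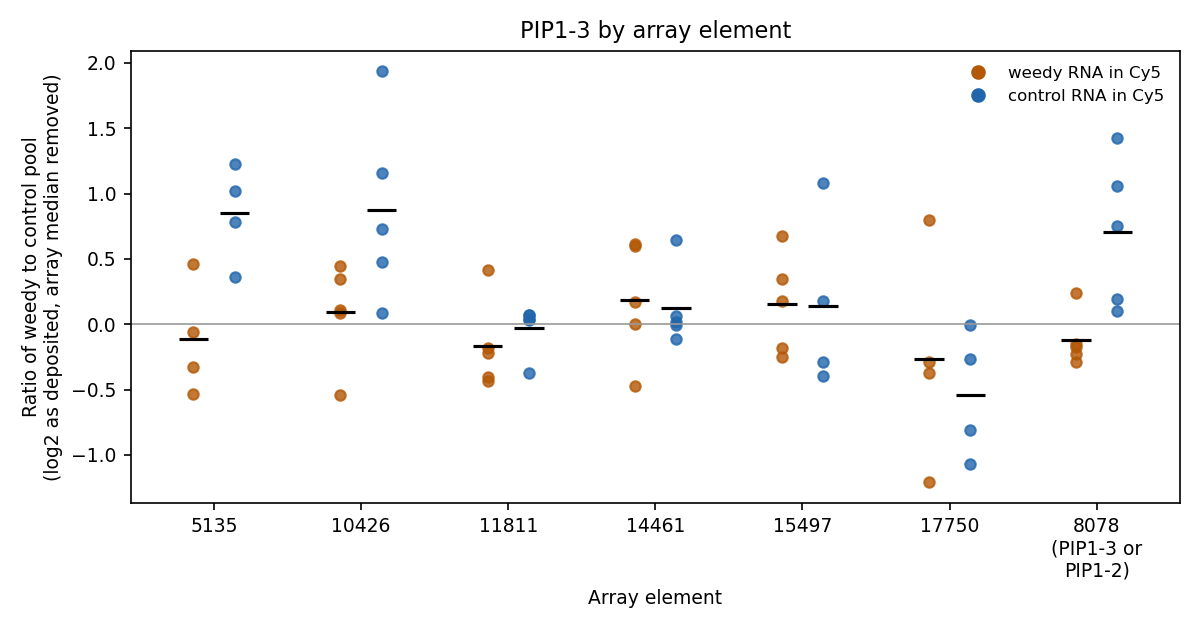
Turned log2 ratio of weedy to control pool on each array for the 6 elements of PIP1-3 and for element 8078, which names PIP1-3 and PIP1-2; orange points have the weedy pool in Cy5, blue points the control pool in Cy5, and bars are means. Elements 5135, 10426 and 8078 share high values with the control pool in Cy5, whereas element 17750 lies mostly below 0.

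Lsi6 was read from element 6396 on 9 arrays. Its ratios with the weedy pool in Cy5 were -0.25 (W2/C1), 0.66 (W3/C2), 0.59 (W4/C3), 0.21 (W1/C4) and 0.47 (W4/C4). With the control pool in Cy5 they were 1.32 (W1/C2), 0.68 (W1/C3), 0.33 (W2/C4) and 1.20 (W3/C1). The negative array was the one that set weedy plot 2 against control plot 1. The mean was 0.33 ± 0.37 (SD, n = 5) with the weedy pool in Cy5 and 0.88 ± 0.46 (SD, n = 4) with the control pool in Cy5, with overlap. With any 1 array left out the fitted ratio lay between 0.53 and 0.70, and with any 1 plot left out between 0.50 (control plot 2) and 0.77 (weedy plot 2). Its 14 tested neighbours in the table had a median ratio of 0.16, and the Lsi6 ratio after removal of block medians was 0.55.

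The dye term, the part of a ratio that follows Cy5 over Cy3 whatever the treatment, was not used to choose the genes and could be tested. It was -0.28 (SE 0.12) for Lsi6, -0.13 (SE 0.06) for PIP1-3 and -0.12 (SE 0.18) for PIP2-4, and 0.14 (SE 0.07) for PIP2-6 and 0.03 (SE 0.07) for PIP1-5. None passed in limma after Benjamini-Hochberg adjustment over 540 genes, at adjusted p = 0.461 for Lsi6, 0.477 for PIP1-3, 0.827 for PIP2-4, 0.477 for PIP2-6 and 0.911 for PIP1-5. Of all 540 genes 0 passed (0%) and 10% had an unadjusted p under 0.05 in limma, among them Lsi6. Among single elements, the dye terms of PIP1-3 elements 5135 (-0.48, SE 0.13) and 10426 (-0.39, SE 0.15) were the largest of the members in size, at adjusted p = 0.374 and 0.466 over 16201 elements. For PIP1-3 the dye term was about as large as the treatment ratio.

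The arrays link all 8 pools, which allowed a level per plot, relative to the mean of the 8 pools, for genes with values on 9 or 10 arrays. For Lsi6 the weedy plots stood at 0.32 (plot 1, SE 0.13), -0.24 (plot 2, SE 0.16), 0.43 (plot 3, SE 0.17) and 0.75 (plot 4, SE 0.20). Its control plots stood at -0.37 (plot 1, SE 0.17), -0.61 (plot 2, SE 0.16), -0.10 (plot 3, SE 0.17) and -0.18 (plot 4, SE 0.13). Weedy plot 4 was labelled Cy5 on both of its arrays, so its level leans on the fitted dye term. Thus 3 weedy plots were higher than all 4 control plots, and weedy plot 2 lay within the range of the control plots. The share of all genes with 3 such plots was not counted. Lsi6 was chosen on the ratios that make up these levels, so its order is a description. PIP2-6 ranged from 0.06 to 0.27 over the weedy plots and from -0.31 to 0.04 over the control plots. This order, with all 4 weedy plots higher than all 4 control plots, was met by 2 of 495 genes (0.404%). PIP2-6 was chosen on the ratios that make up these levels, so the order is a description, and the lowest weedy plot (plot 3, SE 0.14) and the highest control plot (plot 3, SE 0.18) differed by less than their errors. Read as already turned, 2 of the 4 weedy plots of PIP2-6 and 0 of the 4 weedy plots of Lsi6 were higher than all control plots. With block medians removed the PIP2-6 order held, which it then did for 1.62% of genes, with weedy plots from 0.0057 to 0.13 and control plots from -0.17 to -0.02 and a fitted ratio of 0.12.

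For PIP1-5 the weedy plots ranged from -0.08 (plot 2) to 0.24 (plot 3) and the control plots from -0.32 (plot 2) to 0.06 (plot 4), with 2 weedy plots higher than all control plots. For PIP1-3 they ranged from -0.15 (plot 4) to 0.26 (plot 3) in weedy plots and from -0.37 (plot 3) to 0.08 (plot 1) in control plots, again with 2 higher. The share of all genes with 2 such plots was not counted, so these counts are a description. Weedy plot 2 thus had the lowest fitted level of the weedy plots for Lsi6 and PIP1-5, yet the highest for PIP2-6. For PIP2-6 plot 2 stood at 0.27 (SE 0.17) and the next, plot 1, at 0.20 (SE 0.14). For PIP1-5 plot 2 stood at -0.08 (SE 0.13) and the next, plot 1, at 0.05 (SE 0.11). Differences among plots of the same treatment, which the choice of genes did not use, were tested over 6 contrasts. None of the 4 genes passed in a moderated F test with limma's variances, at adjusted p = 0.801 for Lsi6 and PIP1-5, 0.827 for PIP1-3 and 0.891 for PIP2-6. Over 495 genes 0 passed (0%) and 3.23% had an unadjusted p under 0.05, and on simulated data the test called 0 of 60 elements with 1 pool raised by 1 and 28 of 50 with 1 pool raised by 2, on the log2 scale. That simulation covered single elements with 1 pool raised, adjusted over 13825 elements, and not gene values over 495 genes. Whether differences of the size seen here could be detected in the genes was therefore not tested. PIP2-4, with 8 arrays, left no residual spread for such a fit.

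**Figure D3:**
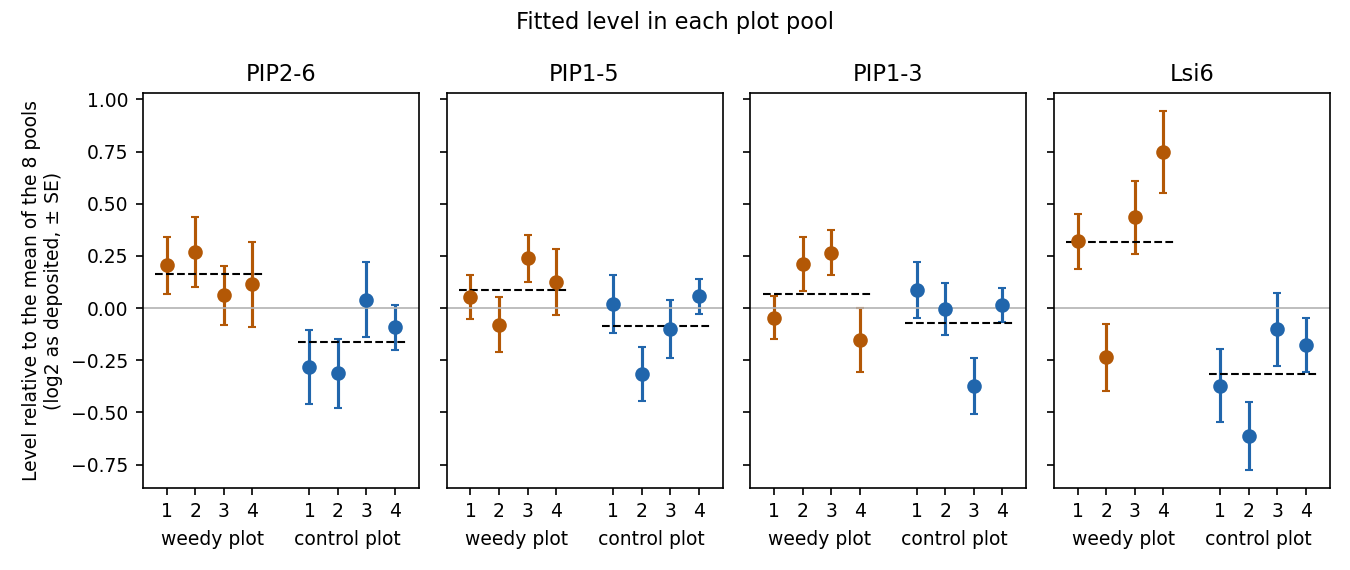
Fitted level of each plot pool relative to the mean of the 8 pools, on the log2 scale with SE, for the genes with values on 9 or 10 arrays; orange points are weedy plots, blue points control plots, dashed lines their means. Lsi6 has 3 weedy plots higher than all control plots and weedy plot 2 at -0.24. For PIP1-5 and PIP1-3 the range of the weedy plots overlaps that of the control plots.

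Likeness among the members over the arrays varied by pair. Uncentred correlation, which does not depend on how arrays are turned, was highest between PIP2-4 and PIP1-5 at 0.91 (n = 8 arrays), followed by PIP2-4 with Lsi6 at 0.76 (n = 8) and PIP1-5 with Lsi6 at 0.76 (n = 9). It was lowest between PIP2-6 and PIP1-3 at 0.21 (n = 10). Over the 77421 pairs of the 394 genes with values on all 10 arrays, the median was 0.0088 and the upper quartile 0.29. Of those pairs 0.116% were above 0.9. Member pairs on fewer arrays are not strictly comparable with this background. This measure takes in the treatment ratio on which the members were chosen, and genes share arrays, pools and position effects, so these values are a description.

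Outside the members, Lsi6 was most like TCTP at 0.90, the ferredoxin gene fdx2 (LOC541619) at 0.88 and the enolase gene eno1 (LOC732811) at 0.84, among 485 candidate genes with values on the same 9 arrays. PIP2-6 was most like LOC100101527 at 0.92, the expansin gene expB8 (LOC542496) at 0.91 and MTK-4 (LOC542152) at 0.87, among 391 genes over 10 arrays. PIP1-5 was most like LOC542505 at 0.87, the acidic ribosomal protein gene arpp2b (LOC542340) at 0.84 and fdx2 at 0.84. PIP1-3 was most like the chaperone gene hsp70-4 at 0.91, rbcS (LOC542212), the small subunit of Rubisco, at 0.91 and the malate dehydrogenase gene mdh6 (LOC542374) at 0.90. The fitted ratios of these like genes were all positive, from 0.12 (SE 0.06) for expB8 to 0.39 (SE 0.11) for fdx2, and likeness to them takes in the treatment ratio too. No aquaporin outside the members was among these genes, but missing values kept several from being candidates. PIP1-1 and PIP1-2, with values on 9 arrays, could be compared with Lsi6 alone. PIP2-5, with 8 arrays, and NIP3-1, with 7, could be compared with no member. Members were not candidates for each other, and PIP2-4 had too few arrays for this comparison.

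A further 7 aquaporin genes were annotated and 6 could be fitted. All 6 had a positive ratio, from 0.03 to 0.47 with a median of 0.12, where 57.2% of all 540 genes were positive. In limma 0 passed in either direction over 540 genes, and 0 had an unadjusted p under 0.05. The plasma membrane genes were PIP2-5 (LOC542619) at 0.47 (SE 0.24, adjusted p = 0.439), PIP1-1 (LOC542434) at 0.14 (SE 0.16), whose 2 elements stood at -0.22 and 0.43, PIP1-2 (LOC541779) at 0.12 (SE 0.16) and PIP2-1 (LOC541888) at 0.04 (SE 0.16). The tonoplast genes, whose channels lie in the vacuolar membrane, were TIP1-1 (LOC541675) at 0.12 (SE 0.07) and TIP2-2 (LOC541895) at 0.03 (SE 0.11). These signs were not stable: 3 of the 6 were positive with array weights, 0 when the values were read as already turned, and 3 without control plot 3. PIP2-1 was positive on 3 of 10 arrays and owed its sign to W1/C3, without which its ratio was -0.13.

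The remaining gene, NIP3-1 (LOC541885), of the same branch as Lsi6, had values on 7 arrays and fell short of the filter. Its ratios were -0.55 (W2/C1), -1.04 (W3/C2), -0.19 (W1/C4) and -1.37 (W4/C4) with the weedy pool in Cy5, and -1.12 (W1/C2), -0.20 (W2/C4) and -0.82 (W3/C1) with the control pool in Cy5. It was thus negative on 7 of 7 arrays, with a mean of -0.79 ± 0.52 (SD, n = 4) with the weedy pool in Cy5 and -0.71 ± 0.47 (SD, n = 3) with the control pool in Cy5. The share of all genes negative on every array with a value was not counted. With a filter of 2 arrays per orientation its fitted ratio was -0.75 (SE 0.16, adjusted p = 0.143 over 560 genes, limma), so it did not pass. Read as Cy5 over Cy3, the 2 nodulin-26-like genes thus had fitted ratios of opposite sign, 0.61 for Lsi6 and -0.75 for NIP3-1. Read as already turned, Lsi6 stood at -0.27. NIP3-1 was not fitted on that reading, and its means in the 2 orientations would then differ in sign. PIP2-5 ran from -0.78 (W1/C4) to 1.12 (W3/C2) with the weedy pool in Cy5 and from -0.06 (W3/C1) to 1.52 (W2/C4) with the control pool in Cy5. Its element, 7580, stood 2 places from that of PIP2-4 in the table, and their uncentred correlation was 0.75 over 8 arrays. PIP2-6 and PIP2-1 lie on the same chromosome with 2 annotated genes between them in RefSeq assembly Zm-B73-REFERENCE-NAM-5.0, and had ratios of 0.31 and 0.04.

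At the level of single elements, 11 of the 13 fitted aquaporin elements outside the members were positive, where 53.6% of all 16201 elements were, and 7 of the 13 belong to TIP1-1. Of the member elements, whose ratios were used in the choice, 8 of 10 were positive. The 7 elements of TIP1-1 ran from -0.03 to 0.21, a narrower range than the 6 of PIP1-3, from -0.40 to 0.48.

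**Figure D4:**
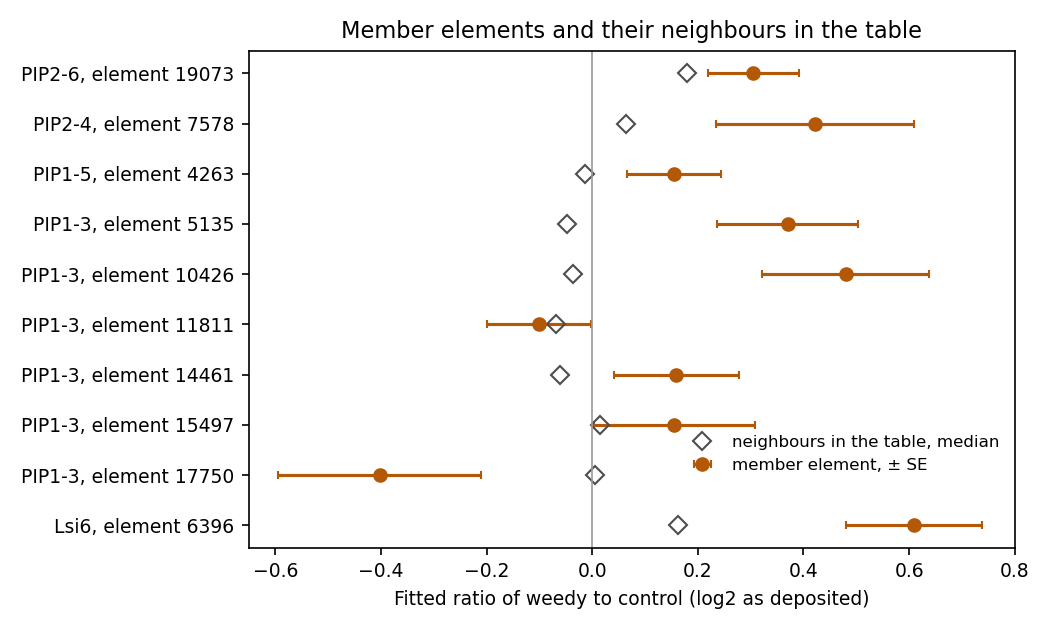
Fitted ratio of weedy to control for each of the 10 member elements (orange, with SE, log2 scale) and the median fitted ratio of the tested elements within 10 places on either side in the table (open diamonds). The neighbours of the PIP2-6 and Lsi6 elements lie at 0.18 and 0.16, and those of the other elements between -0.07 and 0.06.

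Proton pumps, which set up the gradients that many solutes and, with them, water follow, were examined as a related group. All 4 fitted genes had positive ratios, with a median of 0.16, where 57.2% of all 540 genes were positive, with a median of 0.02. After adjustment 0 passed. Under an unadjusted p of 0.05 in limma there was 1 of the 4, mha4, as there were 11.9% of all genes. The plasma membrane pumps mha4 (LOC542052) and mha2 (LOC542048) stood at 0.25 (SE 0.09, adjusted p = 0.361, limma) and 0.19 (SE 0.15, adjusted p = 0.639, limma). They were positive on 7 of 9 and 5 of 10 arrays. The pumps vpp3 and vpp1 stood at 0.13 (SE 0.14) and 0.12 (SE 0.14). These signs depend on the reading: read as already turned, vpp3 stood at -0.35, vpp1 at -0.065, mha2 at -0.058 and mha4 at 0.0083. Of 3 other transporter genes 2 could be fitted, both near 0 and neither passing: the potassium channel gene ZMK2 (LOC542002) at -0.02 (SE 0.08) and the plastid glucose transporter gene glct1 (LOC541809) at -0.02 (SE 0.08).

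The reading of the deposited values changed the sign of 3 members. Read as already turned to weedy over control, the ratio was -0.27 (SE 0.12) for Lsi6, -0.13 (SE 0.06) for PIP1-3 and -0.13 for PIP2-4, and it stayed positive for PIP2-6 at 0.14 and PIP1-5 at 0.02. When W2/C4 and W3/C4, which carry control plot 4 in Cy5, had their signs turned, PIP1-3 stood at 0.02 and Lsi6 at 0.53. In the other alternatives run, all 5 genes stayed positive.

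**Figure D5:**
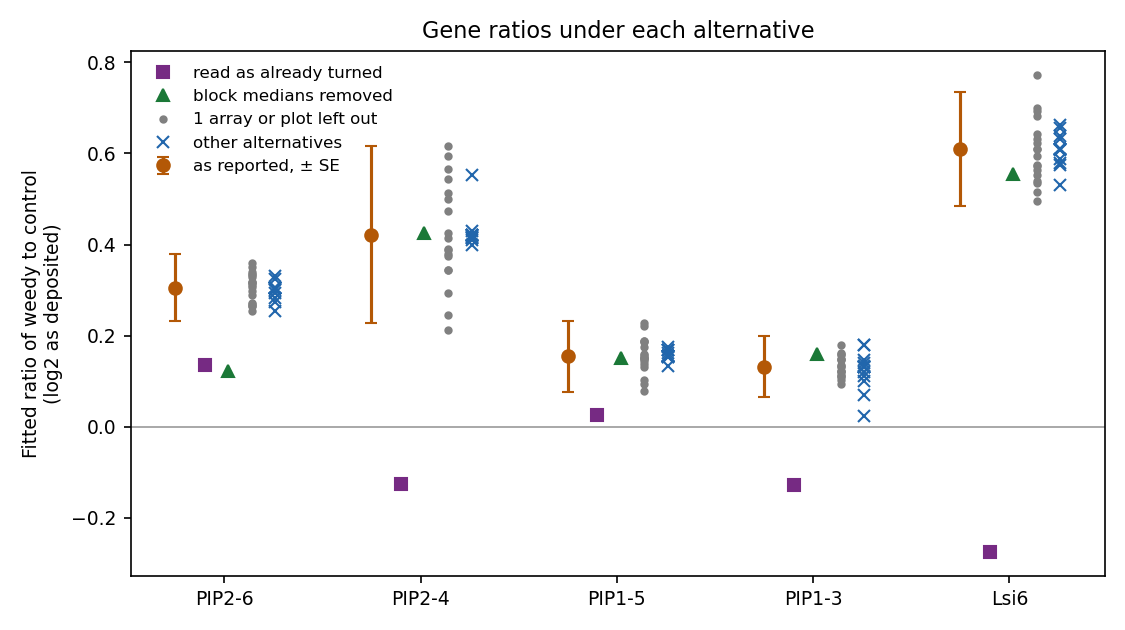
Fitted ratio of weedy to control for each gene (log2 scale) as reported (orange, with SE) and under each alternative: values read as already turned (purple squares), block medians removed (green triangles), 1 array or plot left out (grey dots) and the remaining settings (blue crosses). Lsi6, PIP2-4 and PIP1-3 fall below 0 under 1 setting, the reading as already turned, and PIP2-6 is lowest, at 0.12, with block medians removed.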

How the data were processed

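Log ratios of 10 arrays of 2 colours were used. The deposited values are treated as log2; the sources used here do not state the log base, the numerator, the scanner, background correction, normalization or filters. The labels call the dyes Cy5 and Cy3 and name an Alexa Fluor cDNA kit; signal intensities were not used, so the number of arrays limits the precision. The members, gene lists and tests were chosen with earlier results of these data known.

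Each array was centred on its median. Of the elements, 16201 had values on 4 or more arrays of both dye orientations and were fitted. A treatment term and a dye intercept were fitted by generalised least squares, with the 8 plots as a random effect at a ratio of plot to array variance of 0.0347, estimated by restricted likelihood. Moderation of the variances used limma (3.58.1; R 4.3.3). All p-values were adjusted by Benjamini-Hochberg over all elements or genes. A second fit gave each plot a fixed effect. Where an array was left out, the same elements were kept. Element names come from the platform annotation (1800 elements with 1 gene, 23 with several, 17377 unnamed here); synonyms come from RefSeq, assembly Zm-B73-REFERENCE-NAM-5.0, matched for 562 of 583 genes. Elements of a gene were averaged per array; MNB1b, on 230 elements, was left out.

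Named genes were the members, all measured aquaporins, the 2 genes of smallest p among proton pumps and among other transporters, and per member the 3 genes of highest uncentred correlation with values on the same arrays (at least 9). Lists were matched by symbol and synonym alone, since no gene descriptions were used. On simulated data with the weedy against control design and 16201 elements, 47 of 67 elements changed by 0.5 on the log2 scale and 67 of 67 changed by 1 were called. The simulated noise was normal, independent between elements, and took its variances from the same fit. In it 4.91% of unchanged elements had an unadjusted p under 0.05 in the moderated t test, against 12.1% of all elements in the data. These counts therefore do not give the power for the real arrays. Alternatives covered centring, scaling, weights, filters, the plot number, the reading of the values, position, and each array and plot left out; the neighbour medians, PIP1-3 without elements 5135 and 17750, both sparse arrays left out, and plot orders and ranks under other readings were added after seeing the data.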

Additional observations from a re-analysis of the deposited data

Results flagged for a closer look

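Of 54 checks of 1 gene or element within 1 dye orientation, 4 found an array far from the others, and chance gives about 1 in 20. The turned log2 ratio of PIP2-1 on W1/C3 was 1.56, against -0.30 to 0.10 on the other 4 arrays with the control pool in Cy5. PIP1-3 element 14461 also stood apart on W1/C3, at 0.65 against -0.11 to 0.06. PIP1-3 element 11811 stood at -0.37 on W1/C2, against 0.03 to 0.07. Element 8078, which names PIP1-3 and PIP1-2, stood at 0.24 on W3/C2, against -0.29 to -0.15 on the other 4 arrays with the weedy pool in Cy5.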

How the results depend on the processing

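The signs of the 5 member ratios held in all alternatives run except the reading as already turned. Read so, the ratios were -0.27 for Lsi6 and -0.13 for PIP1-3, the dye terms were 0.61 for Lsi6, 0.41 for PIP2-4 and 0.13 for PIP1-3, and 0 elements passed and 0 other aquaporins were positive. On that reading TIP1-1 stood at -0.15, PIP2-5 at -0.35, PIP2-1 at -0.16, PIP1-1 at -0.33, TIP2-2 at -0.0862, PIP1-2 at -0.12, vpp3 at -0.35, glct1 at 0.14, mha2 at -0.058 and vpp1 at -0.065. The count of elements past the threshold, 2, was 1 with arrays scaled and with 1 value per plot, 6 with array weights, 0 with the 2 arrays of control plot 4 in Cy5 turned, and 0 to 4 with an array or plot left out. The count of genes, 0, was 1 with plot numbers entered as a replicate block, 2 with array weights, and 0 to 1 with an array or plot left out. The other aquaporins with a positive ratio were 3 of those fitted with values on all 10 arrays, 3 with array weights, 3 with the 2 arrays turned and 3 to 6 with an array or plot left out. With array weights PIP2-1 stood at -0.00469, TIP2-2 at -0.0128 and PIP1-2 at -0.00928, and with block medians removed TIP2-2 stood at -0.0196. With the 2 arrays turned PIP1-1 stood at -0.085, TIP2-2 at -0.0738, PIP1-2 at -0.0566 and glct1 at 0.033. ZMK2 was 0.0856 with values on all 10 arrays, and glct1 0.0237 with the replicate block and 0.0572 with the weaker filter. With an array or plot left out, TIP2-2 ranged from -0.0796 to 0.13, PIP2-1 from -0.13 to 0.13, PIP1-2 from -0.0263 to 0.32, PIP1-1 from -0.00522 to 0.28, ZMK2 from -0.0924 to 0.0286 and glct1 from -0.099 to 0.0555, and the dye terms from -0.0294 to 0.0831 for PIP1-5 and -0.30 to 0.15 for PIP2-4. With the replicate block of plot numbers the member ratios were 0.64 (Lsi6), 0.55 (PIP2-4), 0.30 (PIP2-6), 0.17 (PIP1-5) and 0.15 (PIP1-3). Same-numbered plots had correlations over elements of -0.50, 0.13, -0.54 and 0.14, and none correlated best with its own number. The correlations use fitted plot levels that share the errors of the same fit, so they cannot decide whether the numbers pair the plots. The cause of these changes was not tested. Lsi6 and PIP2-4 gave no value with values on all 10 arrays, and PIP2-4 none with 1 value per plot. Signal over background was not analysed here, so dim spots could not be set aside.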
